A study of Mus musculus with 3 samples.

Results

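Oxidative phosphorylation genes were followed in single neurons of the mouse neocortex that had carried a somatostatin-driven Cre recombinase. The members were all genes whose symbol begins with Nduf, Uqcr, Cox4 to Cox8, Atp5 or mt-, together with Sdha, Sdhb, Sdhc and Sdhd. Of 106 matching symbols, 101 had at least 30 UMIs (unique molecular identifiers, each standing for 1 captured RNA molecule) in the cells kept, and 88 of these lie in the nuclear genome and 13 in the mitochondrial genome. The symbols under the minimum were Ndufa4l2 with 25 UMIs, Cox4i2 with 5, Cox8b with 1, and Cox8c and a second entry named Atp5o with 0. The files list 31053 genes, of which 13806 had at least 30 UMIs.

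The series holds 3 droplet libraries of GFP-positive cells sorted from the neocortex of Sst-Cre; RCEloxP mice. The E16.5 library pooled 6 animals, and the P1 and P5 libraries pooled 3 animals each. All 3 stages carry the same Cre and reporter alleles, and the reporter marks every cell that ever expressed the Cre, so the sorted cells are not limited to those making somatostatin at the time of the sort. The study followed how the types of somatostatin neurons arise, among them the long-range projecting neurons marked by Nos1.

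Oxidative phosphorylation passes electrons from NADH through complex I (NADH dehydrogenase), or from succinate through complex II, to complex III and then to complex IV (cytochrome c oxidase), while complexes I, III and IV pump protons out of the mitochondrial matrix. Complex V (ATP synthase) lets the protons flow back and makes ATP. Most subunits are encoded in the nucleus and imported, whereas a small set of core subunits of complexes I, III, IV and V is encoded by the mitochondrial DNA, and complex II is encoded by the nucleus alone. Neurons draw much of their ATP from this pathway, and several subunits exist as paralogs with different tissue patterns.

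Cells with more than 700 genes and under 10% of their UMIs in mt- genes were kept, which left 9433 of 12324 cells, namely 3952 (E16.5), 2501 (P1) and 2980 (P5). Nos1 cells had at least 1 UMI of Nos1, the gene for neuronal nitric oxide synthase, and numbered 67, 434 and 547 at E16.5, P1 and P5. Cells with Lhx6, the transcription factor of neurons from the medial ganglionic eminence, and without Nos1 numbered 3269, 1606 and 1874, and are called Lhx6 cells below. The UMIs of all cells of a group were summed, and levels are given in CPM (the UMIs of a gene as a share of all UMIs of that group, scaled so that all genes sum to 1000000). With 1 library per stage there was no test of any difference, and every interval given is an exact 95% interval for counting error only. Stage, animals, tissue preparation, software version and library cannot be told apart. As a convention, a gene is counted as higher or lower when its CPM differed at least 1.5-fold.

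The label of the Nos1 group was checked against markers. The 5 markers of long-range Nos1 neurons summed to 13173, 28406 and 40785 CPM in the Nos1 cells at E16.5, P1 and P5, compared with 1710, 1364 and 1140 CPM in the Lhx6 cells. Nos1 is 1 of the 5 and is 0 in Lhx6 cells by definition, so it adds nothing to the check. Npy made up most of the sums, with 12366, 24679 and 34619 CPM against 1635, 1208 and 816 CPM. Chodl had 42.1, 284 and 399 CPM against 7.21, 12.1 and 7.13 CPM. Pcp4 and Pou3f2 were also higher in Nos1 cells in each library. The markers of neurons from the medial ganglionic eminence were mixed. Sst and Sox6 were higher in Nos1 cells in each library, whereas Gad2, Satb1 and Lhx6, which defines the Lhx6 cells, were lower. At E16.5 Sst had 5270 against 2901 CPM, Gad2 89.2 against 302 CPM and Satb1 197 against 589 CPM. Gad1 was lower at E16.5 (189 against 273 CPM) and P1 and higher at P5 (203 against 150 CPM). At E16.5 and P1 the Nos1 group also held RNA of another type. The 5 excitatory neuron markers, none of them at 0, summed to 581 CPM at E16.5 and 154 CPM at P1 in Nos1 cells against 8.05 and 9.36 CPM in Lhx6 cells, and to 6.11 against 2.81 CPM at P5, where Slc17a6 was at 0 in both. Among cells with at least 3 excitatory marker UMIs and no Lhx6, 13 of 39 (E16.5), 11 of 35 (P1) and 2 of 22 (P5) had a Nos1 UMI, at median depths of 11905, 5368 and 3718.5 UMIs. These shares were 33.3%, 31.4% and 9.09%, compared with 1.48%, 18.3% and 17.3% among all kept cells with Lhx6, whose median depths were 5824, 3846 and 4524 UMIs. The Lhx6 share lay below the share in cells of another type at E16.5 and P1. The intervals lay apart at E16.5 (1.09% to 1.95% against 19.1% to 50.2%). At P1 they overlapped (16.6% to 20.1% against 16.9% to 49.3%). Cells of another type had Nos1 UMIs in both libraries, so a Nos1 UMI alone does not mark a Nos1 neuron there. The 67 Nos1 cells at E16.5 are a mixed group by their markers, and 51 of them had no excitatory marker UMI. At P1, 412 of the 434 Nos1 cells had none. Markers of Meis2 inhibitory neurons summed to 175, 85.8 and 19.9 CPM in Nos1 cells and to 47.1, 56.2 and 13.8 CPM in Lhx6 cells. At E16.5 only Meis2 itself was higher in Nos1 cells, with 168 against 4.95 CPM. Tshz1 (5.05 against 34.9), Pbx3 (1.68 against 7.11) and Sp8 (0 against 0.14) went the other way. At P1 Meis2, Pbx3 and Sp8 were higher and Tshz1 was lower (25.4 against 46.3 CPM). The list thus does not settle whether such neurons are in the Nos1 group. The part of other cell types in the Nos1 levels was not tested beyond the values without excitatory cells given below. Astrocyte and radial glia markers summed to 23.6 CPM in the Nos1 cells at E16.5 and to at most 4.57 CPM in the other groups, with Gfap at 0 in all of them. Markers of the oligodendrocyte lineage, microglia, endothelial and mural cells and blood each summed to at most 1.68 CPM in all groups. The libraries shared 3, 1 and 6 cell barcodes pair by pair, and 2, 1 and 1 of these among the kept cells.

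3 sets of sequences are shown for genes whose values are given below, and no level or ratio was tested against them. The first is the mitochondrial gene mt-Atp8, the member with the highest ratio between P1 and E16.5. It lies at positions 7766 to 7969 of the plus strand of the mitochondrial genome (GRCm38, GENCODE M21), and its last 43 bases, in capitals, are also the first bases of mt-Atp6, so that reads within them cannot be given to 1 of the genes.
mt-Atp8: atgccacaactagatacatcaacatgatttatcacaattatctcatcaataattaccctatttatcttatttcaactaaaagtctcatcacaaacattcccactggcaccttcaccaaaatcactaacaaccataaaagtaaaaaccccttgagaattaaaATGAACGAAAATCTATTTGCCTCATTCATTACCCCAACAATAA

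The second set is the end of the coding sequence of Atp5g1, Atp5g2 and Atp5g3, which encode the same mature subunit c of the ATP synthase rotor and whose shares of UMIs differed between the libraries. Over the last 76 codons of the longest reading frame of the annotated transcripts, Atp5g1 shared 85.1% of its bases with Atp5g2 and 79.8% with Atp5g3, and Atp5g2 shared 78.5% with Atp5g3. The last 90 bases are shown, with capitals at the 24 positions where the 3 genes are not all alike.
Atp5g1: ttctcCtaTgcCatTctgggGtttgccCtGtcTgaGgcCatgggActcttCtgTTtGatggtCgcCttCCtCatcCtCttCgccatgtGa
Atp5g2: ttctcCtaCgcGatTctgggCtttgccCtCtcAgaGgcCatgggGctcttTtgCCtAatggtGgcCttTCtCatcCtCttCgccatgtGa
Atp5g3: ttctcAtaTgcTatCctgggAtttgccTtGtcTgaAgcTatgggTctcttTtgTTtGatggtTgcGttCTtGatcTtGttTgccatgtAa

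The third set is the 100 bases before the RefSeq start of the same 3 genes (GRCm38.p6), read 5′ to 3′ along the gene, at chr11:96075632-96075731, chr15:102671048-102671147 and chr2:73911327-73911426, all on the minus strand. Capitals mark the motif of NRF1, a transcription factor of many nuclear genes for mitochondrial proteins, searched on both strands as the 10 letters that stand in capitals in the Atp5g2 promoter.
Atp5g1 promoter: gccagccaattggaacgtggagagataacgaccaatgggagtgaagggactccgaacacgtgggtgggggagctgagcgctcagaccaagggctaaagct
Atp5g2 promoter: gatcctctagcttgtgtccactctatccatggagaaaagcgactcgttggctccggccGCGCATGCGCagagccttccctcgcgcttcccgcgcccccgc
Atp5g3 promoter: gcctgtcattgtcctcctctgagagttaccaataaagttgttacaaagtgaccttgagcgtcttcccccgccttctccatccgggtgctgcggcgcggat

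Of the 88 nuclear members, 75 had a promoter in the RefSeq table, taken as 250 bases before to 50 bases after the start. The NRF1 letters were found in 7 of 75 (9.33%), namely Atp5g2, Atp5k, Cox6a1, Ndufa11, Ndufaf4, Ndufaf5 and Uqcrc1, compared with 2.32% of the promoters of 10513 nuclear genes with at least 30 UMIs. The letters of GABPA, searched as CCGGAAGT, were in 6.67% of the members and 8.84% of the genes, and those of YY1, searched as AAGATGGC, in 14.7% and 5.18%. A match describes letters only.

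The summed level of the nuclear members was lower at P1 than at E16.5 or P5, while that of the mitochondrial members was higher at P1. In Lhx6 cells the 88 nuclear members together reached 24452 CPM at E16.5, 18766 CPM at P1 and again more, 25433 CPM, at P5. The 13 mt- genes reached 42713, 63516 and 41928 CPM in the same cells. The P1 library was thus lowest for the nuclear sum and highest for the mitochondrial sum, and the sums at E16.5 and P5 lay close together in both.

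The log2 ratio of P1 over E16.5 in Lhx6 cells was −0.38 (95% interval −0.39 to −0.37) for the nuclear sum and 0.57 (0.57 to 0.58) for the mt- sum. From P1 to P5 the ratios were 0.44 and −0.60, and P5 over E16.5 differed by 0.06 and −0.03. Nos1 cells had nuclear sums of 26049, 17984 and 22227 CPM and mt- sums of 40968, 52670 and 34032 CPM. As in Lhx6 cells, P1 was lowest for nuclear and highest for mt- genes, but E16.5 and P5 changed places in the nuclear sum, which was highest at E16.5 in Nos1 cells and at P5 in Lhx6 cells.

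**Figure D1:**
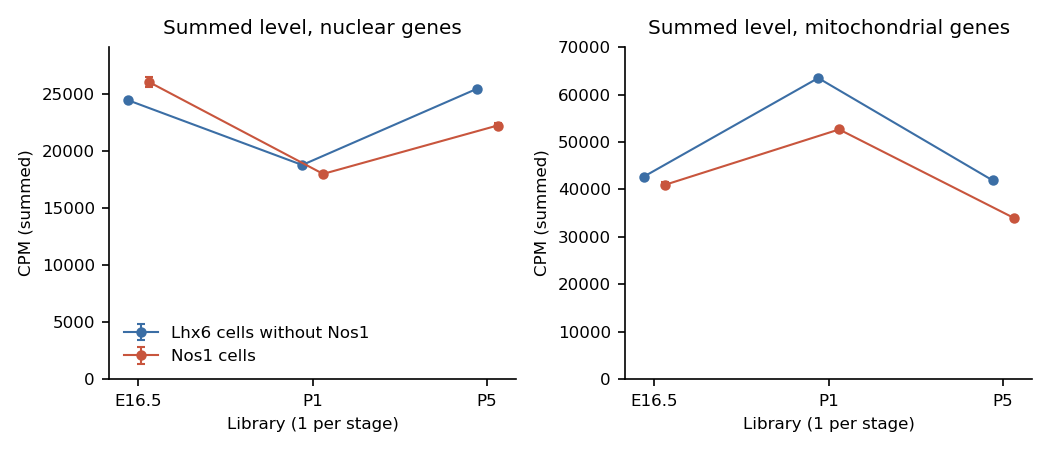
Summed CPM of the 88 nuclear members (left) and the 13 mt- genes (right) in each library, in Lhx6 cells without Nos1 (blue) and Nos1 cells (red); bars are 95% Poisson intervals and are mostly smaller than the points. In Lhx6 cells the nuclear sum is 24452 CPM at E16.5, 18766 CPM at P1 and 25433 CPM in the P5 library, while the mt- sum is 63516 CPM at P1 and 42713 and 41928 CPM in the other libraries.

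The mt- sum is bounded by the limit of 10% mt- UMIs that defines the kept cells, and the P1 library lost the most cells to it. Cells with more than 700 genes and at least 10% mt- UMIs were 33.9% of the P1 library but 7.21% at E16.5 and 6.19% at P5. With a limit of 5% the mt- ratio of P1 over E16.5 in Lhx6 cells was 0.078 and that of P5 over P1 −0.11, and with no limit they were 0.90 and −0.96. The nuclear ratios were −0.45 and 0.54 at the 5% limit and −0.51 and 0.58 with no limit. Among cells of 2000 to 5000 UMIs the nuclear ratio of P1 over E16.5 was −0.15.

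The nuclear sum also varied with the mt- share inside each library. With CPM taken over all genes other than mt- genes, kept P1 cells with 0 to 2.5% mt- UMIs had a nuclear sum of 14421 CPM, and those with 5 to 7.5% had 20346 CPM. At P5 the first bin was the highest, with 29006 CPM in cells of 0 to 2.5% and 21441 CPM in cells of 7.5 to 10%. In each of the 4 bins the P1 value lay below the P5 value, and in the bins up to 7.5% it lay below the E16.5 value, which was 18144 CPM against 18401 CPM at P1 in the bin of 7.5 to 10%. Cells at or over the 10% limit had 13422, 13477 and 19045 CPM at E16.5, P1 and P5, below the kept cells of the same libraries, which had 25343, 19347 and 25776 CPM.

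Across single nuclear genes, 2 members (Atp5k and Ndufa3) were higher and 27 lower at P1 than at E16.5 in Lhx6 cells, and 59 lay between. Of 13635 genes tested in that comparison, 25.0% were higher and 11.3% lower. The median log2 ratio of the nuclear members was −0.43, compared with 0.17 over all genes, so that the members' median lay 0.60 below that of all genes. Setting the median of all genes to 0 counted 47 members lower and 2 higher. The share of all genes on that scale is not given here, so nothing is read from these 2 counts. From P1 to P5, 28 nuclear members were higher and 8 lower, against 19.5% and 23.9% of 13566 genes, with a median of 0.34 compared with −0.09 over all genes. From E16.5 to P5, 17 were higher and 22 lower, against 29.5% and 23.8% of 13741 genes, with a median of −0.11. The members thus did not all return to their E16.5 level at P5, although their sum lay close to it.

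**Figure D2:**
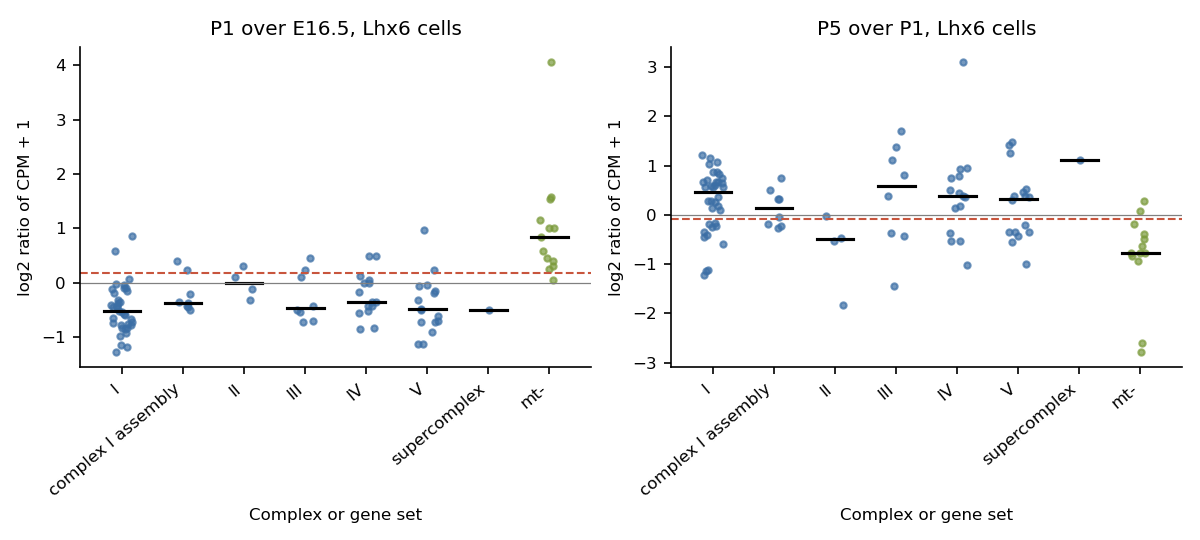
Log2 ratios of single members, with a pseudocount of 1 CPM, for P1 over E16.5 (left) and P5 over P1 (right) in Lhx6 cells without Nos1, by complex; black bars are medians and the red dashed line is the median of all genes. The complex I median is −0.53 in the left panel and 0.46 in the right one, while the mt- genes (green) have medians of 0.85 and −0.77.

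Complex I, the entry point for electrons from NADH and the largest complex, had 1 of 36 subunits higher and 16 lower at P1 than at E16.5, with a median of −0.53. From P1 to P5, 14 of its subunits were higher and 4 lower, with a median of 0.46. Of all genes, 25.0% were higher and 11.3% lower at the first step, and 19.5% and 23.9% at the second. The flavoprotein Ndufv1, which binds NADH, had 107 CPM at E16.5, 43.4 CPM at P1 and 71.5 CPM at P5 in Lhx6 cells, and the first ratio was −1.28 (−1.47 to −1.14). Nos1 cells gave 94.3, 47.7 and 59.1 CPM for it. Ndufs3, a core subunit of the peripheral arm, had 119 CPM at E16.5 but 53.3 CPM at P1 and 59.2 CPM at P5, so that it stayed low at P5.

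Ndufs7, a core subunit that carries an iron-sulfur cluster, had 151 CPM at E16.5, 79.3 CPM at P1 and 169 CPM in the P5 library. Ndufs8 went from 70.3 to 43.7 and to 69.0 CPM. Both core subunits were lowest at P1. Ndufs1, which carries iron-sulfur clusters near the NADH site, had 50.3 and 49.2 CPM at E16.5 and P1, with overlapping intervals, and 36.7 CPM at P5. Ndufv2 declined at each step from 165 to 121 and to 94.6 CPM.

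Accessory subunits of complex I differed more widely. Ndufa13 had 329, 246 and 571 CPM, and its ratio of P5 over P1 was 1.21 (1.14 to 1.29). Ndufb3 had 183, 117 and 49.4 CPM and was lower at each later stage. Ndufa9, at the joint of the arms of the complex, had 65.7 CPM at E16.5 but 28.2 CPM at P1. Ndufa3 and Ndufa1 went against the rest, with 82.0, 149 and 98.8 CPM for Ndufa3 and 102, 153 and 68.5 CPM for Ndufa1, both highest at P1. Ndufc2 had 439, 326 and 150 CPM. The 8 genes for assembly factors, which help to build complex I and are not part of it, had 0 higher and 0 lower from E16.5 to P1 and 1 higher (Ndufaf3) from P1 to P5. These 8 genes are too few to set beside the shares of all genes.

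Complex II links the respiratory chain to the citric acid cycle, and none of its 4 genes passed 1.5-fold between E16.5 and P1. Sdha, the flavoprotein that oxidizes succinate, had 80.0, 85.7 and 84.7 CPM, and the intervals of all its stage ratios in Lhx6 cells held 0. Sdhd, a membrane anchor, had 80.9 and 74.7 CPM at E16.5 and P1 but 20.3 CPM at P5, a log2 ratio of −1.83 (−2.12 to −1.64), the lowest of the nuclear members at that step. Nos1 cells gave 108, 72.1 and 12.2 CPM for Sdhd, also lowest at P5. Sdhb, the iron-sulfur subunit, had 196, 156 and 112 CPM, and Sdhc had 56.6, 69.9 and 48.4 CPM. The subunits of this complex therefore differed among themselves, with Sdhd alone past 1.5-fold from P1 to P5. Of all genes, 25.0% were higher and 11.3% lower at the first step, and 19.5% and 23.9% at the second.

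Complex III, which passes electrons from ubiquinol to cytochrome c, split by subunit between P1 and P5, when 4 of its 8 genes (Uqcr10, Uqcr11, Uqcrh and Uqcrq) were higher and 1 (Uqcrc2) lower. Of all genes, 19.5% were higher and 23.9% lower at that step. Uqcr10, a small subunit, had 237, 326 and 1068 CPM, with the ratio of P5 over P1 at 1.71 (1.65 to 1.77). Uqcr11, another small subunit, had 255, 301 and 782 CPM. Uqcrc2, a large core subunit, declined from 163 to 98.1 and to 35.2 CPM. The small subunits and this core subunit thus moved in opposite directions, and Nos1 cells gave 291, 276 and 833 CPM for Uqcr10 and 195, 84.3 and 26.5 CPM for Uqcrc2.

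In complex IV, where electrons meet oxygen, 0 of 15 genes were higher and 2 lower (Cox4i1 and Cox5a) at P1 than at E16.5. Of all genes, 25.0% were higher and 11.3% lower, so the 2 lower genes lie near the share of all genes. From P1 to P5, 5 were higher (Cox4i1, Cox5b, Cox6a2, Cox6b2 and Cox8a) and 1 lower (Cox7c), against 19.5% and 23.9% of all genes. Cox4i1 had 694, 382 and 645 CPM and Cox5a 886, 496 and 641 CPM, both lowest at P1. Cox8a had 748 CPM at E16.5 and 748 CPM at P1, with an interval of the ratio from −0.04 to 0.04, and 1429 CPM at P5. Cox7a2l, a factor that joins complexes III and IV into supercomplexes, had 300, 210 and 458 CPM. Ndufa4, once listed under complex I and now known as a subunit of complex IV, had 1050, 712 and 549 CPM and declined at each step.

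In complex V, 1 of 16 genes was higher and 7 lower at P1 than at E16.5, against 25.0% and 11.3% of all genes. From P1 to P5, 3 were higher (Atp5d, Atp5g1 and Atp5j2) and 1 lower (Atp5g2). Of all genes, 19.5% were higher and 23.9% lower at that step, so the 3 higher genes lie near the share of all genes. Atp5f1, of the stalk that holds the catalytic head, had 615, 279 and 220 CPM and remained low. Atp5h, of the same stalk, had 504, 231 and 303 CPM. Atp5d, of the rotating central stalk, had 326, 196 and 547 CPM, and Atp5j2, a membrane subunit, 421, 338 and 912 CPM, both highest at P5. Atp5k, a membrane subunit at which ATP synthases pair, had 176, 346 and 270 CPM and was the nuclear member with the highest ratio of P1 over E16.5, at 0.97 (0.90 to 1.04).

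Nos1 cells of the same libraries were counted in the same way, although they share library and preparation with the Lhx6 cells and are not an independent series. At P1 over E16.5, 4 of 84 nuclear members (Atp5k, Ndufa3, Ndufaf4 and Sdhc) were higher and 43 lower, against 30.2% and 15.3% of 11081 genes, with a median of −0.61. At P5 over P1, 20 of 87 were higher and 13 lower, against 16.8% and 28.0% of 11802 genes, with a median of 0.23.

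These stage ratios moved with properties of the transcripts across all genes. At P1 over E16.5 the median log2 ratio of all genes went from −0.23 in the 10% of genes with the shortest transcripts to 0.41 in the 10% with the longest, and 57 of the 88 nuclear members lay among the shortest 10%. The median transcript length was 913 bases for nuclear members and 3144 bases for genes with at least 30 UMIs. These 57 members had a median ratio of −0.43, lower than that of all genes of their length class. Relative to the median of genes of like GC content and length, 7 members were higher and 13 lower, with a median of −0.22. The share of all genes past 1.5-fold on that scale is not given here, so nothing is read from the counts.

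At P5 over P1 the ratios moved with GC content, from a median of −0.32 in the 10% of genes with the lowest GC to 0.36 in the 10% with the highest. The 30 nuclear members of lowest GC (36.7% to 48.7%) had a median of −0.20 with 4 higher. The 29 of highest GC (53.8% to 63.3%) had a median of 0.65 with 15 higher. Of all genes, 19.5% were higher at this step, and the shares by GC class are not given here. Relative to genes of like GC and length, 24 nuclear members were higher and 11 lower, with a median of 0.19. Here too the share of all genes on that scale is not given, so nothing is read from the counts. The part of GC content and length in the stage ratios was not tested. On that scale, P5 over P1 was 1.34 for Uqcr10, 0.64 for Uqcr11, 0.91 for Atp5d, 1.34 for Atp5j2 and −1.51 for Sdhd, each with the sign it had before.

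The paralogs of subunit c of ATP synthase traded places over the 3 libraries. In Lhx6 cells Atp5g1 made up 36.4% of the UMIs of Atp5g1, Atp5g2 and Atp5g3 at E16.5, then 42.9% (P1) and 71.9% (P5), with 95% Clopper-Pearson intervals of 35.8% to 36.9%, 41.9% to 43.9% and 71.2% to 72.7%. Atp5g2 made up 34.1%, 25.4% and 8.88%. Atp5g3 made up 29.5%, 31.7% and 19.2%. The genes thus had similar shares of UMIs at E16.5, and Atp5g1 held most of them at P5.

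Nos1 cells changed in the same directions, with 38.8%, 47.0% and 71.8% for Atp5g1 and 28.4%, 20.1% and 8.51% for Atp5g2. At E16.5 Atp5g3 (32.8%) lay above Atp5g2 in Nos1 cells, unlike in Lhx6 cells. At P5 the intervals of both cell groups overlapped for all 3 genes, while at P1 the Atp5g1 share was higher in Nos1 cells (44.9% to 49.1%). The Atp5g2 share was lower in Nos1 cells at E16.5 (25.5% to 31.4% against 33.6% to 34.7%). It was also lower there at P1 (18.4% to 21.8% against 24.5% to 26.3%). In CPM, Atp5g1 in Lhx6 cells had 495, 477 and 1143, Atp5g2 had 465, 282 and 141, and Atp5g3 had 401, 353 and 305. Atp5g1 was thus higher at P5 than at P1, and Atp5g2 was lower at each later stage. The Atp5g2 transcript had 63.3% GC and the longest Atp5g1 transcript 46.8%. Relative to genes of like GC and length P5 over P1 was 1.37 for Atp5g1 and −1.73 for Atp5g2. The NRF1 letters shown above stood 42 to 33 bases before the start of Atp5g2 and in neither of the other promoters. A link of these letters to the Atp5g2 level was not tested. Only reads that aligned to 1 gene were counted, so reads in stretches that the paralogs or their pseudogenes share were lost, and the CPM of such genes is uncertain to that extent.

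**Figure D3:**
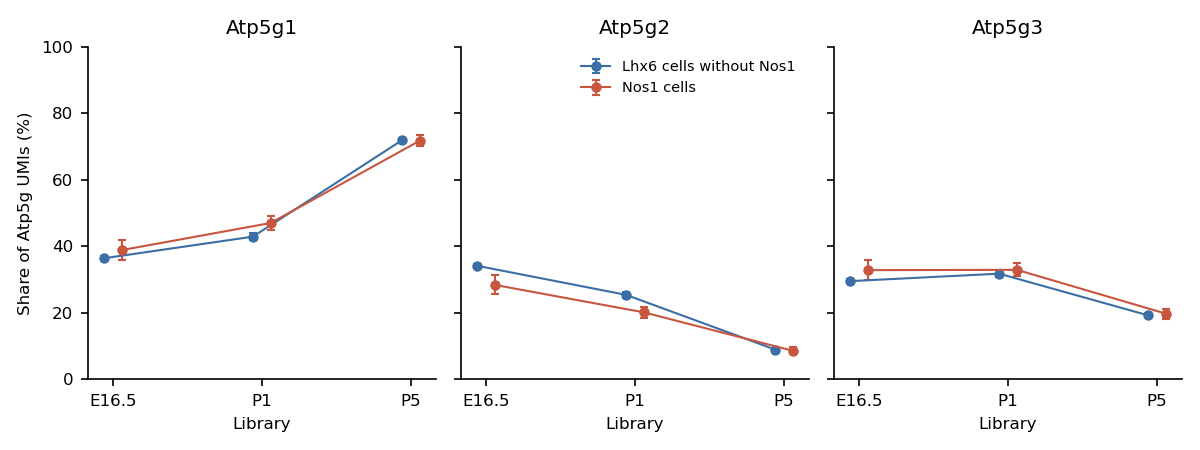
Share of each Atp5g gene among the UMIs of Atp5g1, Atp5g2 and Atp5g3 in each library, in Lhx6 cells without Nos1 (blue) and Nos1 cells (red), with 95% Clopper-Pearson intervals. Atp5g1 goes from 36.4% to 71.9% and Atp5g2 from 34.1% to 8.88% in Lhx6 cells, and the Nos1 cells have 71.8% and 8.51% at P5.

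Among the paralogs of complex IV, the broadly expressed forms held nearly all UMIs. Cox4i2 had at most 2 UMIs and Cox8b at most 1 in any library of Lhx6 cells. Cox6a2, known as the heart and muscle form of Cox6a, made up 1.62%, 2.21% and 6.36% of Cox6a UMIs in Lhx6 cells of E16.5, P1 and P5, from 90, 51 and 122 UMIs. The intervals were 1.30% to 1.98%, 1.65% to 2.90% and 5.31% to 7.55%. For Nos1 cells it made up 0.610%, 0.508% and 3.33%, from 1, 3 and 14 UMIs. The intervals of both cell groups overlapped at E16.5 and at P5 but not at P1.

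Thinned to 2000 UMIs a cell, 0.613%, 0.989% and 2.63% of the Lhx6 cells had a Cox6a2 UMI, compared with 2.17%, 2.93% and 4.96% unthinned. The share was highest at P5 on both scales, and no cell type that lacks the gene was set beside it. Shallower cells left out were 169, 291 and 201. In Nos1 cells the thinned shares were 0 of 65 cells at E16.5 (exact upper bound 5.52%), 0.562% at P1 and 0.966% at P5, with 2, 78 and 133 cells left out. Cox6a1 itself had 258, 281 and 194 CPM in Lhx6 cells, so that the larger share of Cox6a2 at P5 went with more Cox6a2 (4.24, 6.37 and 13.2 CPM) and less Cox6a1.

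Cox6b2, known as the testis form of Cox6b, had 11, 1 and 81 UMIs in Lhx6 cells of the 3 libraries in order of age, and 0, 1 and 21 in Nos1 cells. This is 0.52, 0.12 and 8.75 CPM in Lhx6 cells, low at every stage beside 571, 424 and 581 CPM of Cox6b1. The UMIs of P5 stood apart from those of the other libraries in both cell groups. The log2 interval of P5 over P1, without a pseudocount, ran from 3.61 to 11.5. Cox7a1, another muscle form, had 3.49, 2.50 and 3.56 CPM, and the intervals of its stage ratios held 0. Cox7b2 stayed at or under 1.40 CPM in all groups. The common forms had 585, 517 and 740 CPM for Cox7a2 and 363, 360 and 399 CPM for Cox7b in Lhx6 cells. Ndufa4l2, a paralog of Ndufa4 under the minimum of 30 UMIs, had 1, 2 and 3 UMIs in Lhx6 cells and 0, 6 and 10 in the smaller group of Nos1 cells.

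The mitochondrial genome is transcribed as long precursors that are cut into shorter RNAs, and its genes differed in size of change. At P1 over E16.5, 7 of 13 mt- genes were higher and 0 lower in Lhx6 cells, with a median of 0.85. In the step to P5, 0 were higher and 8 lower, with a median of −0.77. Of all genes, 25.0% were higher and 11.3% lower at the first step, and 19.5% and 23.9% at the second. The gene with the highest ratio was mt-Atp8, whose sequence is shown above and which encodes a small subunit of ATP synthase. It had 214 CPM at E16.5, 3620 CPM at P1 and 598 CPM in the P5 library, a log2 ratio of 4.07 (4.03 to 4.12) and then −2.60 (−2.64 to −2.56). Nos1 cells gave 194, 3221 and 485 CPM, so that the peak at P1 was present in both cell groups.

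As a share of mt- UMIs in all kept cells, mt-Atp8 took 0.495% (E16.5), 5.83% (P1) and 1.42% (P5). Within the P1 library the share was 7.68% in cells of 0 to 2.5% mt- UMIs and 5.84% in cells of 7.5 to 10%, and it was 6.34% in the cells at or over the limit. At E16.5 the bins ran from 0.451% to 0.559% and at P5 from 1.30% to 1.71%. The rank of the libraries was thus the same in each bin. Its neighbour mt-Atp6, which shares 43 bases with it, had 11840, 15656 and 11099.5 CPM, a ratio of 0.40 followed by −0.50. As these neighbours overlap, whether their counts come from separate RNAs cannot be told here. Without mt-Atp8 the mt- sum had a ratio of 0.50 at P1 over E16.5 and −0.54 at P5 over P1. The P1 files name Cell Ranger 3.0.2 and the others 3.1.0, with the same list of genes. The part of software version and preparation in the mt-Atp8 level cannot be told apart from stage.

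The mt- genes of complex I were also mostly highest at P1. mt-Nd3 had 724, 2117 and 306 CPM, and its ratio of P5 over P1, −2.79 (−2.85 to −2.73), was the lowest of all members. mt-Nd4l, which shares 7 bases with mt-Nd4, had 323, 960 and 617 CPM. mt-Nd2 had 2207, 4928 and 2887 CPM and mt-Nd1 1582, 3164 and 1856 CPM. These genes had ratios of 1.00 to 1.57 at P1 over E16.5.

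mt-Nd4 changed less, with 3301, 4943 and 4324 CPM. mt-Nd5 was the exception, with 424 CPM at E16.5 and 852 and 906 CPM at P1 and P5, so that it remained high. mt-Nd6, the only member on the minus strand of the mitochondrial genome, had 28.8, 52.7 and 29.2 CPM. It shares 14 bases with mt-Nd5 on the other strand. Whether counting used strand is not given in the sources used here, so it is not known whether reads of both genes in these bases were told apart.

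The mt- genes of complexes III and IV stayed under 1.5-fold at the first step. mt-Co1, the catalytic subunit of complex IV, had 3382, 3488 and 4233 CPM and was the mt- gene with the lowest ratio of P1 over E16.5, at 0.04 (0.02 to 0.06). mt-Co2 had 6506, 8864 and 4662 CPM and mt-Co3 7717, 9555 and 7308 CPM. mt-Cytb, the only mitochondrial subunit of complex III, had 4465, 5317 and 3103 CPM. Ratios at P1 over E16.5 were 0.45 for mt-Co2, 0.31 for mt-Co3 and 0.25 for mt-Cytb, which all stood highest at P1.

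**Figure D4:**
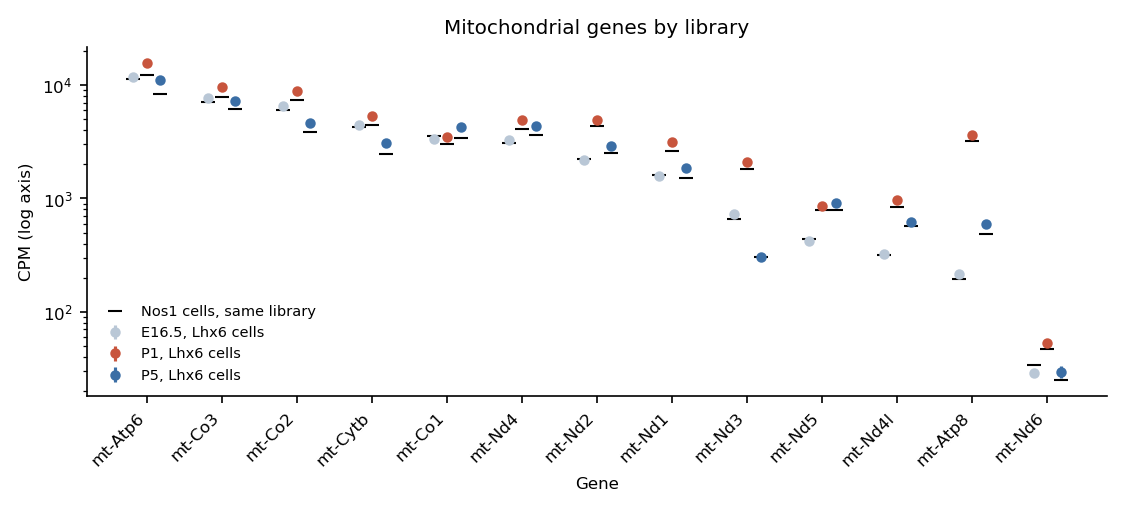
CPM of the 13 mt- genes on a log axis in Lhx6 cells without Nos1 at E16.5 (grey), P1 (red) and P5 (blue), with 95% Poisson intervals, and in Nos1 cells of the same library (black dashes). mt-Atp8 goes from 214 to 3620 and 598 CPM, whereas mt-Co1 stays between 3382 and 4233 CPM, and levels are not corrected for gene length.

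Within each library, Nos1 cells were compared with Lhx6 cells, a comparison that shares preparation and software. The mt- sum was lower in Nos1 cells at each stage, by log2 ratios of −0.06 (interval −0.08 to −0.04), −0.27 and −0.30 from the youngest to the oldest library. The direction at E16.5 turned to 0.0094 at a limit of 5% mt- UMIs. The nuclear sum was higher in Nos1 cells at E16.5, at 0.09, and lower at P1 and P5, at −0.06 and −0.19. Both sums thus lay below those of Lhx6 cells at P5. Past 1.5-fold, 0 nuclear members were higher in any library, and 6 of 88, 1 of 87 and 4 of 88 were lower at E16.5, P1 and P5. With the median of all genes set to 0, 1 nuclear member, Uqcr11, was higher at E16.5 (log2 ratio 0.58 on the scale used here, with 382 against 255 CPM). Of all genes tested, 13.6%, 8.67% and 8.89% were higher and 19.6%, 9.56% and 14.7% lower in the 3 libraries. No mt- gene passed 1.5-fold in any library. Cox6a2 was among the lower members in each library. At P5 the others were Sdhd and the low genes Cox7a1 and Cox7b2, and at E16.5 they were Sdhc, Ndufaf1, Cox6b2, Cox7a1 and Cox7b2, of which the last 3 had 0 UMIs in the 67 Nos1 cells, so that their ratios rest on the pseudocount.

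At P5 the ratios lay below 0 across most complexes. The median was −0.16 for complex I, −0.21 for complex III, −0.32 for complex IV and −0.22 for complex V, beside −0.07 for all genes. The interval lay below 0 for 40 of 88 nuclear members and above 0 for 3, whereas at P1 these counts were 18 and 6 of 87. Of all genes, 17.4% lay below and 11.1% above 0 at P5, and 12.2% and 10.8% at P1, and intervals are narrower for genes with more UMIs. The Nos1 cells had fewer UMIs at P5, with a median of 3073 against 4752.5 in Lhx6 cells. Among cells of 2000 to 5000 UMIs the P5 ratio was −0.20 for the nuclear sum and −0.45 for the mt- sum. The part of depth in these ratios was not tested.

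The difference of the nuclear sum at P1 was small and its sign depended on the cells taken, with 0.022 at a limit of 5% mt- UMIs, 0.034 with no limit and −0.027 with at least 2 Nos1 UMIs. The mt- ratio at P1 was −0.048 at the 5% limit and −0.46 with no limit. At P5 it was −0.18 and −0.32. Nos1 cells made up 41.4% of the kept P5 cells with 0 to 2.5% mt- UMIs and 5.10% of those with 7.5 to 10%. Without cells that had an excitatory marker UMI, the nuclear ratios were 0.16, −0.053 and −0.19 in order of age, and the mt- ratios −0.13, −0.33 and −0.31.

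**Figure D5:**
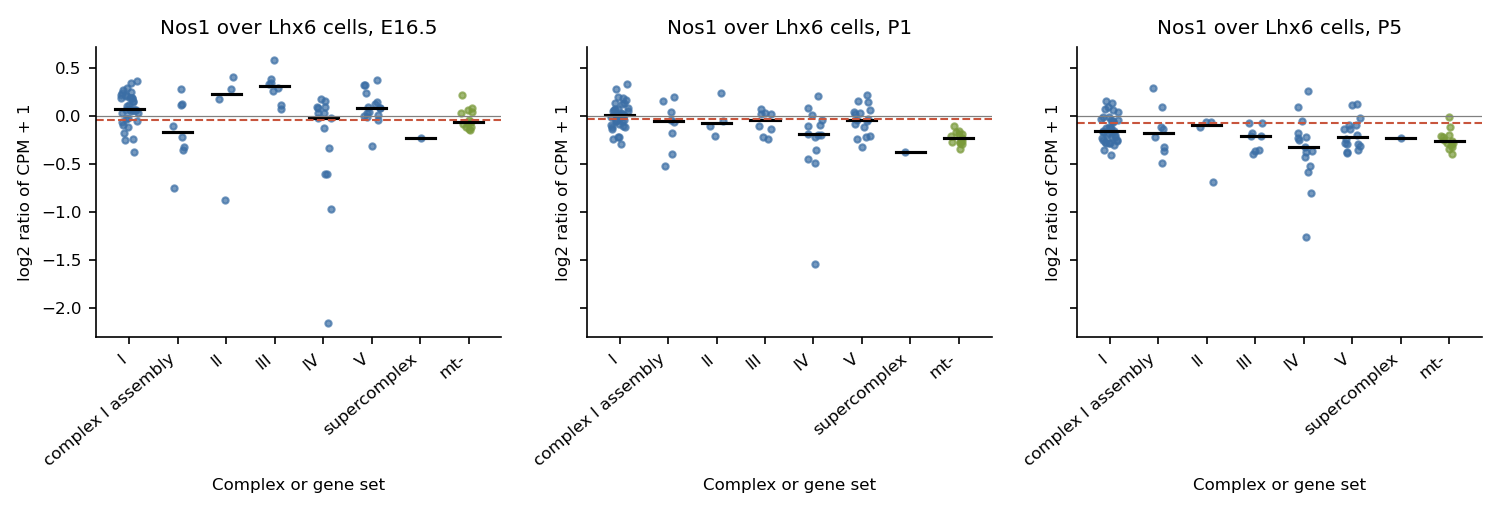
Log2 ratios of Nos1 cells over Lhx6 cells without Nos1, with a pseudocount of 1 CPM, for each member by complex in the 3 libraries; black bars are medians and the red dashed line is the median of all genes. The complex IV median is −0.02, −0.19 and −0.32 at E16.5, P1 and P5, and on this scale no member is 1.5-fold higher in Nos1 cells.

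A single nuclear member, Cox5a, had its interval below 0 in all 3 libraries, and 0 members had it above 0, compared with 2.06% and 2.38% of 12352 genes. Cox5a, a matrix-side subunit of complex IV, had 886, 496 and 641 CPM in Lhx6 cells and 704, 363 and 446 CPM in Nos1 cells at E16.5, P1 and P5. The log2 ratios were −0.33 (−0.48 to −0.19), −0.45 (−0.57 to −0.34) and −0.52 (−0.63 to −0.42). The Nos1 value was below the Lhx6 value in every library.

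Of the mt- genes, 5 of 13 had intervals below 0 in all 3 libraries, namely mt-Co2, mt-Co3, mt-Atp6, mt-Nd4 and mt-Cytb. Their ratios at E16.5 were small, from −0.06 (mt-Atp6) to −0.12 (mt-Co2), and intervals are narrower for genes with more UMIs. The mt- sum at E16.5 turned to 0.0094 at a limit of 5% mt- UMIs, so the direction there depends on the cells taken. mt-Atp6 had 11840, 15656 and 11099.5 CPM in Lhx6 cells and 11364, 12299 and 8419 CPM in Nos1 cells at E16.5, P1 and P5. The Nos1 value was the lower one in each library, and the log2 ratio lay furthest from 0 at P5, at −0.40.

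Other members of complex IV at P5 were lower in Nos1 cells as well. Cox5b had 495 CPM in Lhx6 cells and 368 CPM in Nos1 cells, Cox6b1 581 and 466 CPM, and Cox4i1 645 and 542 CPM. Ndufs6, a subunit of complex I, was 1 of 2 nuclear members with an interval above 0 at both P1 and P5, with 189 and 388 CPM in Lhx6 cells and 229 and 433 CPM in Nos1 cells. Atp5e, of the central stalk of ATP synthase, was the other, with 505 and 663 CPM against 588 and 724 CPM. Of all genes, 10.8% had an interval above 0 at P1 and 11.1% at P5. The share above 0 at both stages is not given here, so nothing is read from the count of 2. Of the assembly factors among the extremes, Ndufaf2 at P5 had 49.0 CPM in Lhx6 cells and 34.6 CPM in Nos1 cells, a log2 ratio of −0.49 (−0.89 to −0.13). The ratio of Ndufaf6 at P1 was −0.40 and that of the complex I subunit Ndufab1 at P5 was 0.13, both with intervals that held 0.

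Other mitochondrial gene lists gave context, and their counts stand beside 25.0% of all genes higher and 11.3% lower at P1 than at E16.5, and 19.5% higher and 23.9% lower from P1 to P5. Of 27 further subunits, assembly factors and carriers outside the rule, 3 were higher and 8 lower at P1 than at E16.5 in Lhx6 cells, and 9 higher and 6 lower from P1 to P5. Of 77 mitochondrial ribosomal protein genes, 1 was higher and 25 lower at the first step and 25 higher and 7 lower at the second, with medians of −0.39 and 0.25. Of 95 cytosolic ribosomal protein genes, 14 were higher and 29 lower, with a median of −0.41, and then 17 higher and 22 lower. Both ribosome lists therefore had medians below 0 at P1 over E16.5, as the nuclear members did.

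The citric acid cycle list, which feeds NADH and succinate to complexes I and II, had 4 of 19 higher and 3 lower at the first step and 3 higher and 7 lower at the second. Citrate synthase, Cs, had 65.4, 120 and 44.8 CPM. Of 18 genes of glycolysis and lactate metabolism, 3 were higher and 7 lower at the first step and 11 higher and 0 lower at the second, with a median of 0.94. Eno2, the neuronal enolase, had 12.4, 36.2 and 152 CPM. Between P1 and P5 the glycolysis list thus had a median above that of the nuclear members, at 0.94 against 0.34, and the citric acid cycle list one below, at −0.44.

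Of 21 genes of mitochondrial biogenesis, 4 were higher and 2 lower at the first step and 2 higher and 5 lower at the second. Ppargc1a, a coactivator known to raise the transcription of oxidative phosphorylation genes, had 29.9, 100 and 168 CPM in Lhx6 cells and 45.4, 35.0 and 52.0 CPM in Nos1 cells. It was lower in Nos1 cells by log2 ratios of −1.49 at P1 and −1.67 at P5, while the interval held 0 at E16.5. Of 11 antioxidant genes, 2 were higher and 2 lower at each step, and of 8 hypoxia response genes, 1 was higher and 2 lower, then 3 higher and 1 lower. With so few genes in each of these 3 lists, and 25.0% and 11.3% of all genes higher and lower at the first step and 19.5% and 23.9% at the second, nothing is read from these counts.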

How the data were processed

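Droplet single-cell libraries of sorted cortical cells from E16.5, P1 and P5 mice were analysed, with 1 library per stage. The authors deposited raw UMI counts per gene and cell, made with Cell Ranger (3.1.0, and 3.0.2 for P1, per the file headers) and STAR on GRCm38. Only reads confidently aligned to 1 gene were counted. Per the study's methods, P1 and P5 tissue went through a Percoll step, and P5 tissue also through trypsin and DNase I. The kept cells held 24632146, 10964193 and 12886663 UMIs at E16.5, P1 and P5, with medians of 5577, 3293 and 3935.5 per cell. No doublet caller was run, and leaving out the 5% deepest cells stands in as an alternative.

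Counts were summed per library and cell group and divided by all UMIs. Log2 ratios used a pseudocount of 1 CPM and genes with at least 10 UMIs in both groups together. Intervals were exact (Poisson for levels, Clopper-Pearson for shares, conditional binomial without pseudocount for ratios), at 95%, and cover counting error only. UMIs collapse copies of 1 molecule. Scripts (pandas 2.3.3, scipy 1.17.1, numpy 2.4.6, Python 3.11.15) were tested on simulated data. GC, length and coordinates came from the longest GENCODE M21 transcript of each gene, and promoters from RefSeq (GRCm38.p6). Genes named were the 13 mt- genes, all listed paralogs, the core of complex I (1 gene of it is not reported here), complex II, and the 5 members with the highest and the 5 with the lowest ratio, among those with at least 50 UMIs, for P1 over E16.5 and P5 over P1 in Lhx6 cells and for Nos1 over Lhx6 cells at P1 and P5. Ndufa1, Ndufa3, Ndufa13, Ndufc2, Atp5k, Eno2, Cs and Ppargc1a, and members named to spell out a count of 5 or fewer, were singled out after their values were seen. The members and lists were chosen with earlier results of these data known. In all, 16 alternatives were planned, and 5 were added after seeing the data.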

Additional observations from a re-analysis of the deposited data

Results flagged for a closer look

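The nuclear sum in Nos1 cells over Lhx6 cells had opposite signs in different libraries, with intervals that left out 0. The log2 ratio was 0.091 (E16.5), −0.061 (P1) and −0.194 (P5). The difference between the libraries was not tested, since each stage had 1 library. Excitatory neuron markers summed to 581 CPM in the Nos1 cells of E16.5, and without cells holding a UMI of these markers the E16.5 ratio was 0.16. The part of excitatory cells in the sign was not otherwise tested. Depth also differed, with medians of 7863, 3704.5 and 3073 UMIs in Nos1 cells at E16.5, P1 and P5. Lhx6 cells had 5808, 3811 and 4752.5 UMIs. The part of depth in the sign was not tested.

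Among the single members reported here, those with intervals on opposite sides of 0 between libraries were Atp5d (0.24 at E16.5 and −0.39 at P5), Atp5g1 (0.32, 0.15 and −0.24 in the 3 libraries in order of age), Atp5g3 (0.38 and −0.20 at E16.5 and P5) and Atp5j2 (0.32 and −0.29 at E16.5 and P5). Cox8a gave 0.16 (E16.5), −0.35 (P1) and −0.22 (P5). Sdhd gave 0.41 and −0.69 at E16.5 and P5. Uqcr10 gave 0.29 (E16.5), −0.24 (P1) and −0.36 (P5), and Uqcr11 0.58 and −0.37 at E16.5 and P5. The mitochondrial gene mt-Co1 gave 0.081 (E16.5), −0.21 (P1) and −0.32 (P5). None of these differences was tested, and the share of all genes with such intervals is not given here.

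Cells with more than 700 genes and at least 10% mt- UMIs were left out of the cells that the main ratios rest on and made up 7.21% of the E16.5, 33.9% of the P1 and 6.19% of the P5 library.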

How the results depend on the processing

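No paired analysis was possible because each stage has 1 library. All values are log2 ratios of summed CPM, named as nuclear or mt-. Only a few signs changed. With a limit of 5% mt- UMIs the mt- ratio of Nos1 over Lhx6 cells at E16.5 went from −0.060 to 0.0094 and the nuclear one at P1 from −0.061 to 0.022, and with no limit the latter was 0.034. The cause was not tested for these or the values below.

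For P1 over E16.5 in Lhx6 cells, the nuclear ratio (main −0.38) was −0.31 without the 5% deepest cells, −0.42 in all kept cells, −0.37 as a mean of per-cell CPM, −0.55 with the median gene at 0, −0.45 at the 5% limit, −0.51 with no limit, −0.31 thinned and −0.35 over a total without mt- genes. It was −0.15 in cells of 2000 to 5000 UMIs. The mt- ratio (main 0.57) was, in the same order, 0.60, 0.52, 0.55, 0.40, 0.078, 0.90, 0.60 and 0.60, then 0.68 in cells of 2000 to 5000 UMIs, 0.58 with over 1000 genes and 0.50 without mt-Atp8.

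For P5 over P1, the nuclear ratio (main 0.44) was 0.42 without the 5% deepest cells, 0.50 per cell, 0.52 with the median gene at 0, 0.54 at the 5% limit, 0.58 with no limit, 0.41 over a total without mt- genes and 0.40 in cells of 2000 to 5000 UMIs. The mt- ratio (main −0.60) was −0.53, −0.45, −0.51, −0.11, −0.96, −0.63 and −0.31 in that order, then −0.55 in all kept cells, −0.49 thinned, −0.61 with over 1000 genes and −0.54 without mt-Atp8.

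For Nos1 over Lhx6 cells, the nuclear ratio at E16.5 (main 0.09) was 0.14 in Nos1 cells with Lhx6, 0.17 at 2000 to 5000 UMIs, 0.16 without excitatory marker UMIs, 0.15 per cell and 0.13 with the median gene at 0. At P1 (main −0.06) it was −0.027 with at least 2 Nos1 UMIs, −0.013 at 2000 to 5000 UMIs, −0.019 per cell, −0.035 with the median gene at 0 and −0.036 thinned. At P5 (main −0.19) it was −0.16 with Lhx6, −0.22 with at least 2 Nos1 UMIs, −0.23 per cell, −0.12 with the median gene at 0 and −0.21 thinned.

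The mt- ratio at E16.5 (main −0.06) was −0.094 without the 5% deepest cells, −0.19 with at least 2 Nos1 UMIs, −0.14 at 2000 to 5000 UMIs, −0.11 per cell, −0.018 with the median gene at 0, −0.15 with Lhx6 and −0.13 without excitatory marker UMIs. At P1 (main −0.27) it was, in that order, −0.34, −0.40, −0.38, −0.33, −0.24, −0.29 and −0.33, then −0.048 at the 5% limit, −0.46 with no limit, −0.34 thinned and −0.29 over a total without mt- genes. At P5 (main −0.30) it was −0.33, −0.35, −0.45, −0.38 and −0.23 for the first 5 of these, then −0.18, −0.32 and −0.35 at the 5% limit, with no limit and thinned.

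At P1 over E16.5, 47 nuclear members were lower with the median gene at 0 (main 27). Relative to genes of like GC and length, 7 were higher (main 2) and 13 lower. Shares of all genes on these scales are not given here, so nothing is read from the counts. For single named genes, setting the median gene to 0 moved 90 values by more than their counting error and left 205, and the GC and length scale moved 131 and left 164, whereas a minimum of 50 UMIs moved 2 values and left 284 within counting error, no minimum moved 1 and left 294, and a pseudocount of 5 CPM moved 3. The depth window, the omission of mt-Atp8, the GC and length scale, the excitatory marker filter and the E16.5 alternatives for Nos1 cells were chosen after seeing the data.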
